A study of Mus musculus with 12 samples.

Results

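The genes described here are 6 genes of the alternative, or interleukin-4 type, activation of macrophages: Retnla, Chil3, Mrc1, Il4ra, Stat6 and Pparg. They were chosen by name for their known function, and their Ensembl identifiers were found for 6 of 6 symbols among the 57010 genes of the deposited count table. The identifiers are ENSMUSG00000061100 (Retnla), ENSMUSG00000040809 (Chil3), ENSMUSG00000026712 (Mrc1), ENSMUSG00000030748 (Il4ra), ENSMUSG00000002147 (Stat6) and ENSMUSG00000000440 (Pparg). All 6 passed the filter on low counts that left 15943 genes for testing. The data were 12 RNA-seq libraries, 3 in each of 4 groups, of large peritoneal macrophages. These cells live in the peritoneal cavity of the mouse and were sorted here as F4/80 high and MHC class II low. The groups crossed genotype, wild-type (WT) or lacking the scavenger receptor Tim4 (Tim4KO), with challenge. Naive mice were not challenged. Challenged mice, 8 weeks old at injection, received ID8ZGO cells into the peritoneal cavity, and macrophages were taken 24 h later. ID8ZGO is a form of the mouse ovarian tumour line ID8 that carries ZsGreen and OVA. All mice were female, and the age of the naive mice is not given in the labels. Only ZsGreen-positive macrophages were sorted from challenged mice and naive cells had no such gate, so challenge and uptake cannot be told apart. The labels do not say whether the Tim4KO is constitutive, or whether each library came from 1 mouse or a pool. The p-values therefore measure the spread between these libraries. The comparisons described how ZsGreen-positive cells of challenged mice differed from naive cells, with Tim4 and without it, and how the genotypes differed.

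In alternative activation, interleukin-4 or interleukin-13 binds a receptor built on the interleukin-4 receptor alpha chain, Il4ra. Janus kinases on the receptor then phosphorylate STAT6, which enters the nucleus and binds target promoters. Retnla (RELM-alpha, a secreted cysteine-rich protein), Chil3 (a secreted chitinase-like lectin without enzyme activity) and Mrc1 (the macrophage mannose receptor) are classical readouts. Pparg encodes a lipid-sensing nuclear receptor that works with STAT6 and with RXR partners. In the peritoneal cavity, resident macrophages are known to divide and to take on this state in response to interleukin-4 in helminth infection.

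The stretches before the start sites of the 3 readout genes are shown because the responses below differ among them. Windows of 250 bases were taken from RefSeq (GRCm38.p6), which held all 6 genes in 8 windows, 3 of them for Pparg. Both strands were searched for TTC and GAA set 4 bases apart, the spacing STAT6 prefers (the STAT6-type motif), for TTCNNNGAA, the spacing of other STAT factors, and for TTGCNNAA, a C/EBP type element. No match of one of these motifs overlapped a match of another in these windows. Matches are in capitals.
Retnla (chr16:48842359-48842608, plus strand): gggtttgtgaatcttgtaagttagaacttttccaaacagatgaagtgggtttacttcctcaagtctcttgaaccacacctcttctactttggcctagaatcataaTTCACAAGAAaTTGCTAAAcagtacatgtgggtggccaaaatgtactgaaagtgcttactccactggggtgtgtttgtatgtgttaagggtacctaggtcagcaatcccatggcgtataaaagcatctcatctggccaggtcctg
Chil3 (chr3:106167565-106167814, minus strand): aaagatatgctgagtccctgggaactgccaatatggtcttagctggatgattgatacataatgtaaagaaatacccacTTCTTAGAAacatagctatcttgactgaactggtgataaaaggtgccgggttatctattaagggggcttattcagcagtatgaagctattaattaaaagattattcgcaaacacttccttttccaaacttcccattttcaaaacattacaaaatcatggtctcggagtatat
Mrc1 (chr2:14229164-14229413, plus strand): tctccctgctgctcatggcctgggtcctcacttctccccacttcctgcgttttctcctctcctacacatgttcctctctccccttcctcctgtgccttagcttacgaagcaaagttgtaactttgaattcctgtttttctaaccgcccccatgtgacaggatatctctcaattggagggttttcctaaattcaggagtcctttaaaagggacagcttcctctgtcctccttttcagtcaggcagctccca
The Retnla window held TTCACAAGAA starting 145 bases before the start site and, just downstream, TTGCTAAA starting at 134 bases. The Chil3 window held TTCTTAGAA at 172 bases, with the other spacing, and the Mrc1 window held no match. Among the 32851 windows of this length in the table, 5.85% held the STAT6-type motif, 7.02% TTCNNNGAA and 9.56% TTGCNNAA. The Il4ra and Stat6 windows held no match, and 1 of the 3 Pparg windows held TTGCCAAA and TTTTGCAA. A match describes these letters and shows no binding.

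Library totals ran from 7358559 to 23170244 counts, and a count of 3 corresponded to 0.137 to 0.399 CPM. CPM, counts per mega-count, is a gene's count relative to its library's total after TMM scaling (trimmed mean of M values). Timd4, which encodes Tim4, stood at 1315 ± 159 CPM in WT naive and 1150 ± 286 in WT ID8, against 7.41 ± 0.262 in Tim4KO naive and 1.72 ± 0.291 in Tim4KO ID8 (mean ± SD, n = 3). Of the 10 markers of large peritoneal macrophages, all were measured, and the defining factor Gata6 had group means of 136 to 179 CPM. Their summed level, Timd4 included, was 51657 to 60315 CPM in naive libraries and 24050 to 27691 in challenged ones. Lysozyme (Lyz2) alone went from 45845 ± 1670 to 12773 ± 2136 CPM in WT. Adgre1 (2569 to 3789 CPM naive, 3932 to 6299 challenged), Icam2 (617 to 911, 941 to 1485) and Itgam (994 to 1334, 1705 to 2360) were higher after challenge. Prg4 ran lower (2797 to 4090 CPM naive, 2068 to 2832 challenged) with overlap, and Gata6, Csf1r, Cd9 and Garnl3 overlapped too. The library WT ID8 3 stood apart, with 1299 CPM summed over 6 proliferation genes against 47.3 to 193 CPM in the other 11 libraries. Reads in 1946 olfactory and vomeronasal receptor genes, taken as background, had sums of 6.25 CPM in WT ID8 3, 41.9 to 362 CPM in the remaining 5 challenged libraries, and between 267 and 836 CPM in naive libraries. The 95th percentile of such a gene was at most 1.52 CPM in any library. Of 1969 such genes, 1946 were kept because their mean level in these libraries was low. That choice bounds the percentile in part.

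**Figure D1:**
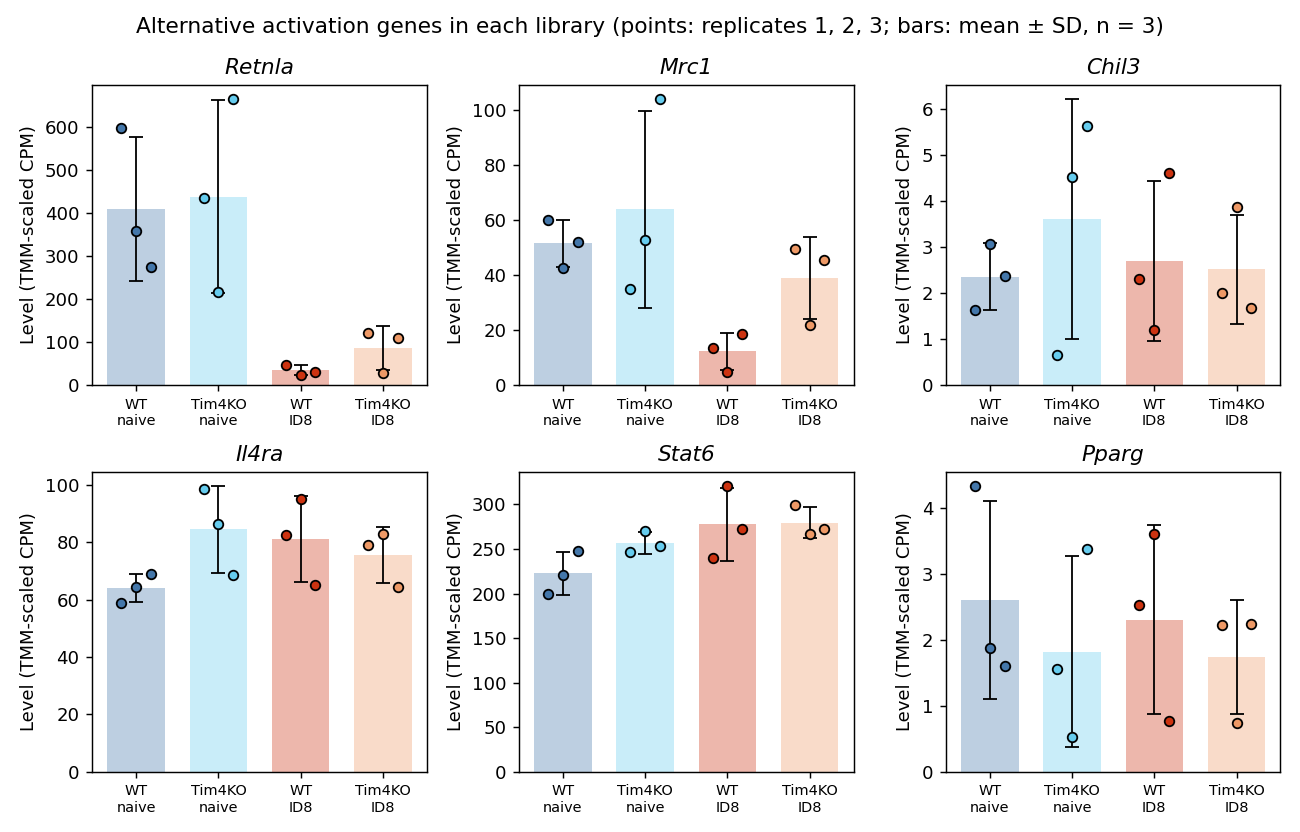
Level of each of the 6 genes in every library, in TMM-scaled CPM on axes that start at 0. Bars are means and error bars SD of the 3 libraries of a group. Retnla stood between 215 and 663 CPM in naive libraries and between 24.4 and 120 CPM in challenged ones, while Chil3 and Pparg stayed below 6 CPM in every library.

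Retnla was abundant in resting cells and lower in all challenged libraries of both genotypes. In WT naive cells it stood at 596, 357 and 275 CPM in replicates 1, 2 and 3, and in Tim4KO naive cells at 433, 215 and 663 CPM. After challenge it was at 47.0, 24.4 and 30.6 CPM in WT and at 120, 27.6 and 110 CPM in Tim4KO. No challenged library reached the lowest naive one, and within Tim4KO ID8 replicate 2 lay inside the WT ID8 range while replicates 1 and 3 lay above it. In WT cells challenge lowered Retnla 12.1-fold (log2 fold change -3.60, SE 0.66, edgeR adjusted p = 0.0041), and this call held in all 12 fits that each left out 1 library. In Tim4KO cells it fell 5.09-fold (log2 change -2.35, SE 0.62, edgeR adjusted p = 0.0341). That second call held in 3 of the 12 fits without 1 library, with the change between -2.65 and -1.89 and the edgeR adjusted p between 0.0403 and 0.127. The libraries whose absence ended it were WT naive 2 and 3, Tim4KO naive 1 and 3, WT ID8 1 and 3, and each of the 3 Tim4KO ID8 libraries. It was also lost with no low-count filter (edgeR adjusted p = 0.126) and in a fit of only the Tim4KO libraries (edgeR adjusted p = 0.0736).

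Mrc1 was lower after challenge in WT cells and less clearly placed in Tim4KO cells. Its levels were 59.8, 42.5 and 52.1 CPM in naive WT cells against 13.4, 4.81 and 18.4 CPM in WT ID8, so the 2 groups did not overlap. In Tim4KO cells they were 35.02, 52.7 and 104 CPM when naive and 49.6, 22.0 and 45.6 CPM after challenge, which did overlap. Mrc1 fell 4.14-fold in WT (log2 change -2.05, SE 0.55, edgeR adjusted p = 0.0216). This call was lost without WT naive 1, WT naive 3, WT ID8 1 or WT ID8 2 (edgeR adjusted p of 0.0507 to 0.0605), where the change lay between -2.02 and -1.64, and with no low-count filter (edgeR adjusted p = 0.0805). Without WT ID8 3 the call held. In Tim4KO cells the change was -0.71 (SE 0.52, edgeR adjusted p = 0.405), with a 95% interval from -1.91 to 0.48.

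Tim4KO naive 3 had the highest Retnla and Mrc1 levels of any library, and Tim4KO ID8 2 had the lowest of its group for both. Tim4KO ID8 2 also had the most background reads among challenged libraries (362 CPM), and their part in its low levels was not tested. In bulk libraries like these, fewer cells with a transcript and less transcript per cell cannot be told apart.

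Chil3 was close to the limit of these data. Its counts ran from 8 to 101, and naive levels were 1.62, 3.07 and 2.37 CPM in WT and 0.656, 4.53 and 5.63 CPM in Tim4KO. Challenged levels were 2.30, 1.20 and 4.61 CPM in WT and 1.998, 3.88 and 1.67 CPM in Tim4KO. All 4 groups overlapped, and the Tim4KO naive libraries alone covered the whole range. In Tim4KO naive 1 the level equalled the 95th percentile of the background genes of that library (0.656 CPM). Its challenge change was 0.22 in WT (95% interval -1.25 to 1.70) and -0.54 in Tim4KO (-2.02 to 0.93), with edgeR adjusted p of 0.802 and 0.615. Intervals this wide include changes of more than 2-fold in either direction in WT. The nearly identical gene Chil4 held 0 to 9 counts per library. How reads that match both copies were counted is not given. Reads moved between these copies, or lost from both, can therefore not be bounded.

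The receptor chain and its transcription factor were present in every library, and no comparison of either passed the test. Il4ra ranged from 58.8 to 68.8 CPM in WT naive (median 64.4), 68.5 to 98.6 for Tim4KO naive (86.3), 65.2 to 95.04 for WT ID8 (82.6) and 64.5 to 82.9 for Tim4KO ID8 (79.0). Every pair of groups compared overlapped. Naive Stat6 levels were 199, 221 and 247 CPM in WT and 247, 271 and 253 CPM in Tim4KO, and challenged levels were 240, 321 and 273 CPM in WT and 299.8, 267 and 272 CPM in Tim4KO. The WT naive mean was the lowest, and the highest WT naive library reached into the ranges of Tim4KO naive and WT ID8 but not of Tim4KO ID8. With challenge in WT, Il4ra changed by 0.34 (SE 0.16, edgeR adjusted p = 0.123) and Stat6 by 0.32 (SE 0.13, edgeR adjusted p = 0.0712). Neither passed, although Il4ra was called without WT ID8 3 (0.50, edgeR adjusted p = 0.0259) and Stat6 without WT ID8 1 (0.48, edgeR adjusted p = 0.0191). In Tim4KO the changes were -0.16 (95% interval -0.54 to 0.22) and 0.12 (-0.18 to 0.42). Exons of Stat6 and Il4ra overlap those of Nab2 and Gm44876 on the opposite strand, and the handling of strand is not given in the sources used here, so reads of these partners cannot be told apart.

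Pparg was barely detected, with 4 to 60 counts per library. Naive libraries had 4.33, 1.87 and 1.61 CPM in WT and 1.56, 0.533 and 3.38 CPM in Tim4KO, and challenged ones 2.53, 3.61 and 0.776 CPM in WT and 2.23, 0.738 and 2.25 CPM in Tim4KO. All groups overlapped, and in Tim4KO naive 2 the level equalled the 95th percentile of that library's background genes (0.533 CPM). No comparison of Pparg passed the test (edgeR adjusted p of 0.840 to 0.990 over the 5 comparisons), and its 95% intervals reached beyond 1 log2 unit on both sides of 0.

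The 6 genes were then set against all tested genes. In WT, 2 of 6 were called and both were lower, while 31.8% of the 15943 tested genes were called and 12.3% were called lower. In Tim4KO, 1 of 6 was called, and it was lower, with 16.6% of all genes called and 5.06% called lower. The median log2 change of the 6 genes was 0.02 in WT and -0.35 in Tim4KO, beside -0.04 and -0.05 over all tested genes. Libraries of the naive and challenged groups did not overlap for 2 of 6 genes in WT and 1 of 6 in Tim4KO, all lower, against 21% and 18.1% of all genes that were lower without overlap. Directions are relative to TMM scaling. Upper-quartile scaling moved the WT median of all genes to -0.28 and the share of calls that were higher from 61.3% to 33.9% (from 69.5% to 48.7% in Tim4KO, where the median moved to -0.17), and under it Il4ra and Stat6 changed by 0.09 and 0.07 in WT.

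**Figure D2:**
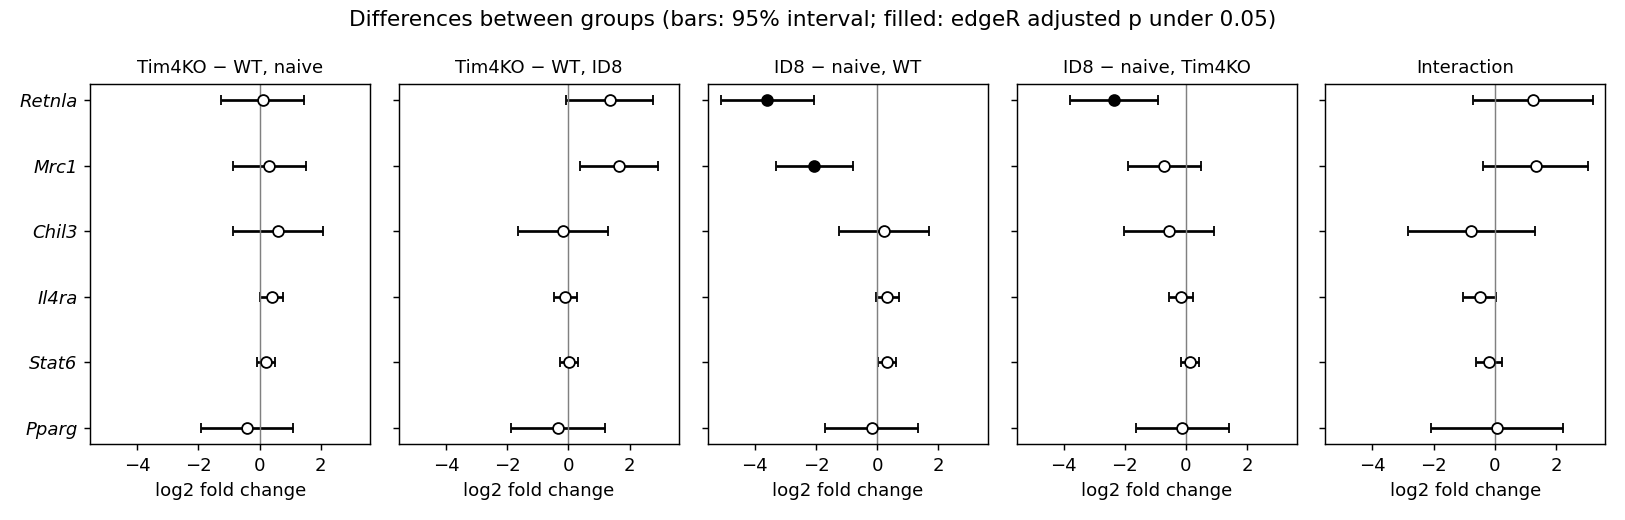
Log2 fold change of each gene in the 5 comparisons, with 95% intervals. Filled points passed the test at an edgeR adjusted p under 0.05: Retnla in both genotypes and Mrc1 in WT, each lower after challenge. No genotype difference and no interaction was called.

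In naive cells none of the 6 genes passed the test between the genotypes. EdgeR called 0 of 6, as did DESeq2 and limma voom, and 0.0439% of all genes were called. With an unadjusted p under 0.05 there was 1 gene, Il4ra, which was 0.40 higher in Tim4KO on the log2 scale (SE 0.16, edgeR adjusted p = 0.743). Of all 15943 tested genes, 999 had an edgeR unadjusted p under 0.05 here. The difference for Retnla was 0.10 with a 95% interval from -1.26 to 1.46, and for Mrc1 0.32 (-0.87 to 1.51). A level 2-fold higher in Tim4KO lay inside both intervals. For Stat6 the interval ran from -0.09 to 0.51.

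In challenged cells, Mrc1 and Retnla had higher means in Tim4KO than in WT, but neither difference passed. All 3 Tim4KO ID8 libraries (22.0 to 49.6 CPM) had more Mrc1 than any WT ID8 library (4.81 to 18.4 CPM). The fitted difference was 3.16-fold (log2 1.66, SE 0.55, unadjusted p = 0.0143, edgeR adjusted p = 0.303). Of all tested genes, 15.6% had no overlap between these groups and 0.0565% were called. For Retnla the difference was 2.54-fold (log2 1.35, SE 0.62, edgeR adjusted p = 0.425), with a 95% interval from -0.07 to 2.77. EdgeR called 0 of 6 genes here, with Mrc1 the 1 gene with an unadjusted p under 0.05, and DESeq2 and voom called 0 as well. That unadjusted threshold was passed by 1935 of all 15943 tested genes. Without WT ID8 3, where 997 genes were called in this comparison instead of 9, still 0 of the 6 genes were.

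The interaction, the Tim4KO challenge response minus the WT response, was called for 0 of 6 genes by edgeR, DESeq2 and voom, and for 0% of all genes by edgeR. It was 1.25 for Retnla (SE 0.85, edgeR adjusted p = 0.725) and 1.34 for Mrc1 (SE 0.75, edgeR adjusted p = 0.704). Il4ra was the 1 gene with an unadjusted p under 0.05 (log2 -0.50, SE 0.23, edgeR adjusted p = 0.668), as were 1186 of all 15943 tested genes. That Mrc1 was called in WT and not in Tim4KO therefore does not show a different response.

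The order of the groups by mean level differed from gene to gene. Retnla was highest in Tim4KO naive (437 ± 224 CPM) and WT naive (409 ± 167 CPM), whose libraries overlapped, then came a gap to Tim4KO ID8 (85.7 ± 50.6 CPM), which overlapped with WT ID8 (34.0 ± 11.6 CPM). For Mrc1 the gap lay elsewhere, between Tim4KO ID8 (39.0 ± 14.9 CPM) and WT ID8 (12.2 ± 6.88 CPM), below Tim4KO naive (63.9 ± 35.7 CPM) and WT naive (51.5 ± 8.64 CPM). For Chil3, Il4ra, Stat6 and Pparg all neighbours in the order overlapped (mean ± SD, n = 3 throughout).

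Levels were compared between genes per kilobase of exon. On this scale Retnla, a transcript of 0.599 kb, was first in naive cells with 683 ± 278 CPM per kb in WT, followed by Stat6 with 50.6 ± 5.46, Il4ra with 10.7 ± 0.834, Mrc1 with 8.08 ± 1.36, Chil3 with 1.44 ± 0.443 and Pparg with 0.881 ± 0.509 (mean ± SD, n = 3). In WT ID8 the order changed at the top: Stat6 was at 63.1 ± 9.24 and Retnla at 56.7 ± 19.4 CPM per kb, within each other's range. Mrc1 had come down to 1.91 ± 1.08, near Chil3 at 1.66 ± 1.07.

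**Figure D3:**
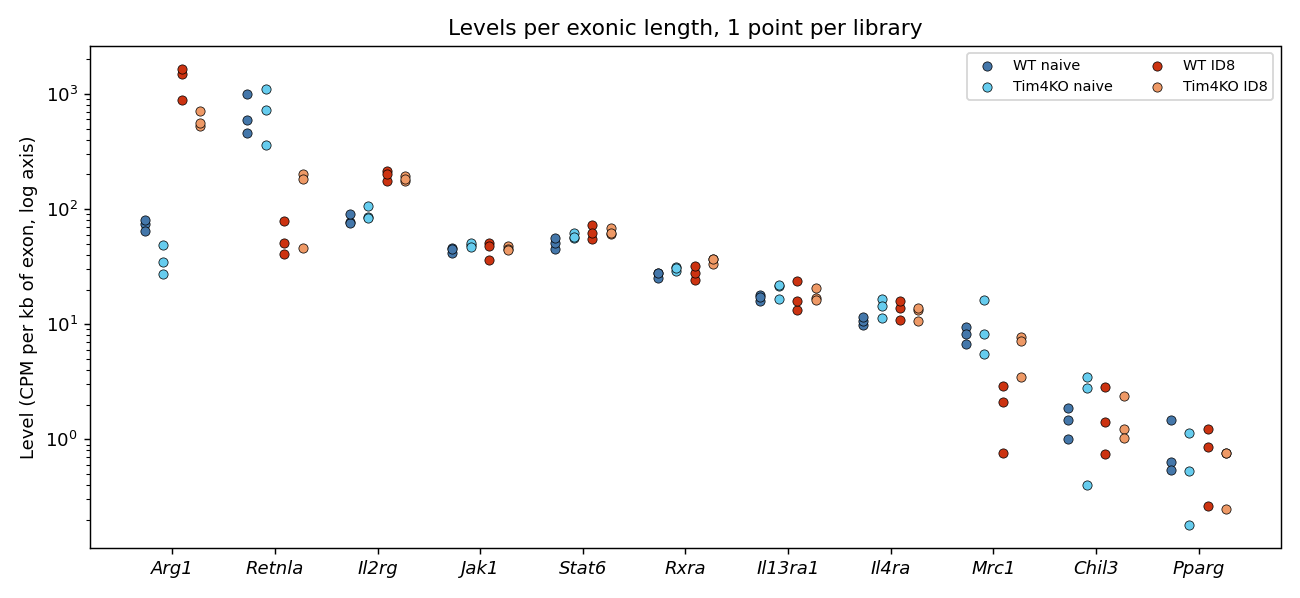
Levels per kilobase of exon (log axis), 1 point per library, for the 6 genes and for Arg1, Il2rg, Jak1, Il13ra1 and Rxra. In WT, Arg1 goes from a mean of 72.9 to 1350 CPM per kb with challenge and Retnla from 683 to 56.7, while Stat6 stays between 50.6 and 63.5 in the 4 group means.

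The ligands and the rest of the receptor were examined next. Il4 itself held 5 to 20 counts per library (0.334 to 1.40 CPM) and Il13 0 to 4 counts, so both ligand transcripts were scarce in the sorted cells. Of the 14 genes of the receptor and signalling list, 12 were tested. With challenge, 1 rose and 1 fell in WT, and 1 rose and 2 fell in Tim4KO. Among all tested genes, 19.5% were called higher and 12.3% lower in WT, and 11.5% and 5.06% in Tim4KO. The common gamma chain Il2rg, which pairs with Il4ra in the type I receptor, was the gene that rose in both. Naive libraries had 184, 181 and 218 CPM in WT and 253, 205 and 200.2 CPM in Tim4KO, and challenged ones 419, 511 and 482 CPM in WT and 464, 421 and 438 CPM in Tim4KO. Its log2 change was 1.27 (SE 0.13, edgeR adjusted p = 1.37e-05) in WT and 1.005 (SE 0.13, edgeR adjusted p = 0.000182) in Tim4KO. Exons of Il2rg overlap those of Gm20489 on the same strand, so reads of both may be mixed. Il13ra1, the partner chain of the type II receptor, changed by 0.04 (SE 0.19) in WT and -0.15 (SE 0.19) in Tim4KO, and the kinase Jak1 by 0.02 and -0.09 (SE 0.13 each). None of these passed, and upper-quartile scaling turned both WT values negative (-0.22 and -0.23). Irs2, the adaptor that couples the receptor to PI3-kinase, fell from 24.6 ± 2.04 to 7.54 ± 1.74 CPM in WT (log2 change -1.71, edgeR adjusted p = 2.36e-05) and from 30.0 ± 5.47 to 12.9 ± 1.497 CPM in Tim4KO (-1.22, edgeR adjusted p = 0.000528). The kinase Jak2 fell in Tim4KO (-0.44, edgeR adjusted p = 0.0469), a call that held in 2 of the 12 fits without 1 library. In both genotype comparisons and the interaction edgeR called 0 of the 12 genes, with 0, 2 and 0 at an unadjusted p under 0.05. The same unadjusted counts over all 15943 tested genes were 999, 1935 and 1186.

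Other genes listed as targets of interleukin-4 moved in both directions with challenge. Whether interleukin-4 induces each of them in these cells, Cd163 among them, was not tested. Of 23 listed genes 17 were tested, and in WT 5 rose and 3 fell, while in Tim4KO 3 rose and 2 fell. Among all genes 19.5% were called higher and 12.3% lower in WT, and 11.5% and 5.06% in Tim4KO. The largest change was in Arg1, which encodes the arginine-degrading enzyme arginase 1. Naive libraries had 165, 179 and 143 CPM in WT and 109, 77.5 and 60.7 CPM in Tim4KO, and challenged ones 3353, 3690 and 1980 CPM in WT and 1175, 1583 and 1249 CPM in Tim4KO. Naive and challenged libraries were far apart in both genotypes. Tim4KO ID8 lay wholly below WT ID8, where 15.6% of all tested genes had no overlap, counting both directions. With challenge Arg1 rose 18.5-fold in WT (log2 change 4.21, SE 0.27, edgeR adjusted p = 5.19e-07) and 16.2-fold in Tim4KO (4.02, SE 0.27, edgeR adjusted p = 1.3e-06). Its interaction was -0.19 (SE 0.34, edgeR adjusted p = 0.885).

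The genotype differences of Arg1 did not pass in the edgeR fit of all 12 libraries, and whether they passed turned on the method. They were -0.98 in naive cells (SE 0.24, unadjusted p = 0.0012, edgeR adjusted p = 0.36) and, after challenge, -1.17 (SE 0.24, unadjusted p = 0.000234, edgeR adjusted p = 0.0932). Both were called by DESeq2 (adjusted p = 0.0102 and 0.000264), with no low-count filter (edgeR adjusted p = 9.79e-07 and 9.2e-12) and without WT ID8 3 (edgeR adjusted p = 0.0185 and 6.68e-05). The challenged difference was also called without Tim4KO naive 1 (edgeR adjusted p = 0.0454) and without Tim4KO naive 3 (edgeR adjusted p = 0.0419). Over all alternatives the difference stayed between -1.23 and -0.79 in naive cells and between -1.40 and -1.003 in challenged cells.

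Tgm2, which encodes the crosslinking enzyme transglutaminase 2, rose from 11.6 ± 5.49 to 176 ± 21.5 CPM in WT (log2 change 3.89, SE 0.36, edgeR adjusted p = 3.18e-05) and from 11.2 ± 4.93 to 75.1 ± 5.36 CPM in Tim4KO (2.71, SE 0.35, edgeR adjusted p = 0.000528). Slc7a2, a transporter of arginine, rose as well, from 96.8 ± 6.54 to 424 ± 108 CPM in WT (2.13, edgeR adjusted p = 1.74e-06) and from 117 ± 14.4 to 274 ± 7.49 CPM in Tim4KO (1.22, edgeR adjusted p = 0.00025). The transcription factor gene Myc rose in WT (1.27, SE 0.32, edgeR adjusted p = 0.0113). The C-type lectin Mgl2 was called higher in WT (1.07, edgeR adjusted p = 0.0447), but without WT ID8 3 its change was 0.45 (edgeR adjusted p = 0.198) and the call held in 6 of the 12 fits without 1 library. It was also lost with the replicate number as a block (0.92, edgeR adjusted p = 0.0537). On the other side were Cd163, the haemoglobin scavenger receptor (-2.06 in WT and -1.11 in Tim4KO), and Alox15, a lipoxygenase gene at 11294 ± 660.2 CPM in WT naive and 11265 ± 1673 in Tim4KO naive cells (-1.04 and -0.55). Their edgeR adjusted p values were 0.000434 and 0.0208 for Cd163 and 0.000123 and 0.015 for Alox15. In Tim4KO these 2 calls held in 8 and 7 of the 12 fits without 1 library. Irf4, a transcription factor gene, was called lower in WT (-0.77, edgeR adjusted p = 0.0464), which held in 1 of the 12 such fits (-0.43 without WT ID8 2) and not with the replicate block (-0.80, edgeR adjusted p = 0.0518). The chemokine genes Ccl17 and Ccl22 were among the listed genes too low to test, and Ccl24 ranged from 152 to 391 CPM and was not called in either genotype. In the genotype comparisons and the interaction edgeR called 0 of 17, with 2, 7 and 5 at an unadjusted p under 0.05. The same unadjusted counts over all 15943 tested genes were 999, 1935 and 1186.

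**Figure D4:**
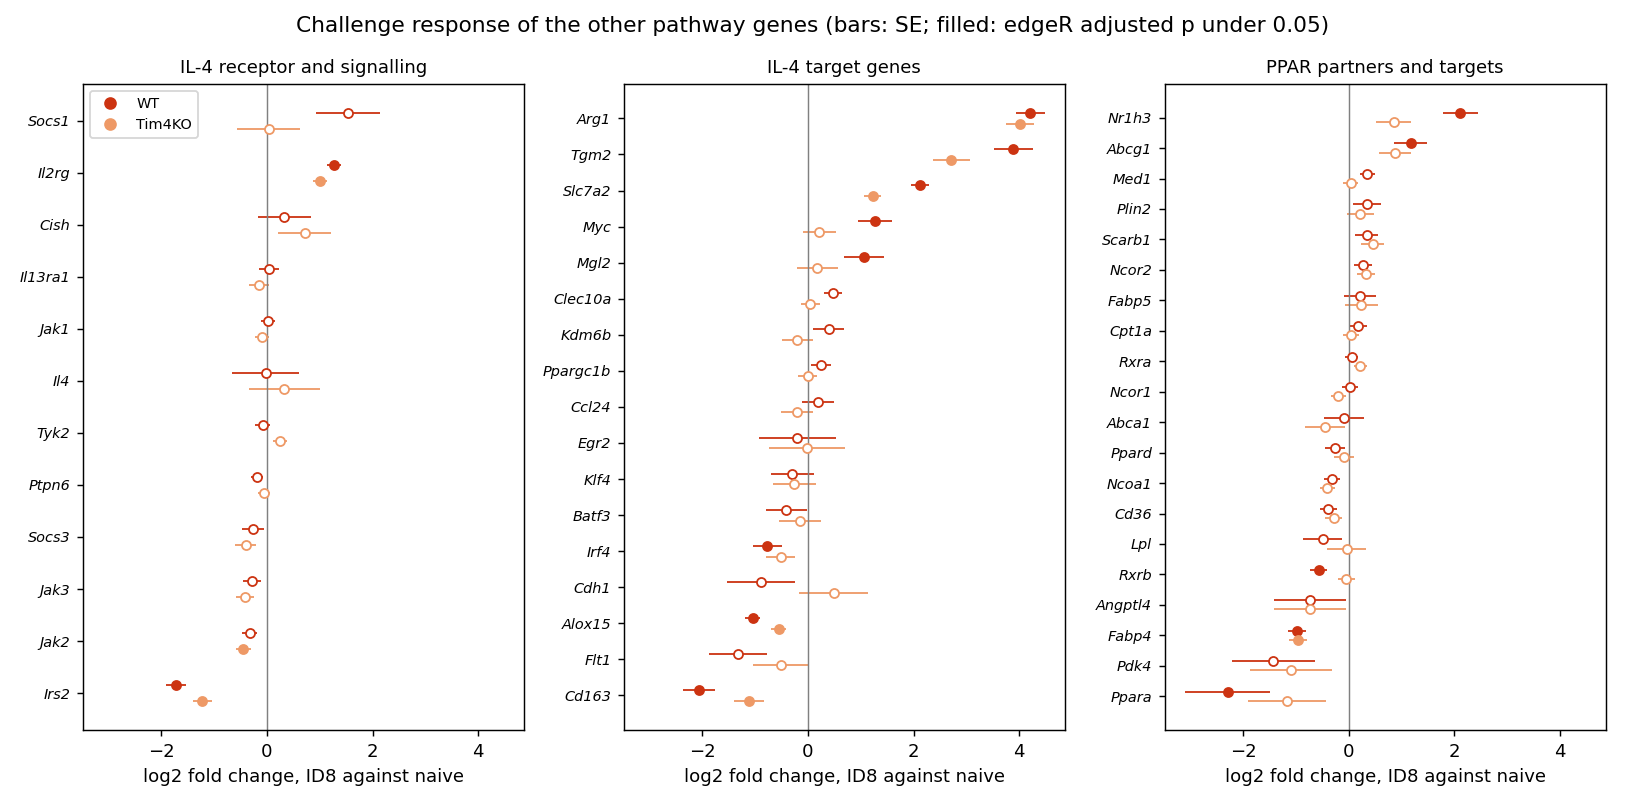
Log2 fold change with challenge of the tested genes of 3 fixed lists, in WT (red) and Tim4KO (orange), with SE. Filled points passed the test at an edgeR adjusted p under 0.05. Arg1, Tgm2 and Slc7a2 rose in both genotypes and Irs2, Cd163, Alox15 and Fabp4 fell in both.

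Partners and targets of PPAR nuclear receptors were listed because Pparg itself was so low. All 20 were tested, of which 2 rose and 3 fell in WT and 0 rose and 1 fell in Tim4KO. The shares over all tested genes were 19.5% higher and 12.3% lower in WT, and 11.5% and 5.06% in Tim4KO. Rxra, the usual partner of PPAR-gamma, had group means of 147 to 193 CPM, with a change of 0.06 in WT and 0.22 in Tim4KO (SE 0.12 each) that did not pass. The WT value was negative with upper-quartile scaling (-0.19). Fabp4, a fatty acid binding protein gene, fell from 529 ± 36.4 to 267 ± 63.7 CPM in WT (log2 change -0.99, edgeR adjusted p = 0.000658) and from 550.1 ± 99.3 to 284 ± 20.5 CPM in Tim4KO (-0.95, edgeR adjusted p = 0.00164). Nr1h3, the gene of the oxysterol receptor LXR-alpha, rose in WT (2.11, SE 0.33, edgeR adjusted p = 0.000416), as did the cholesterol exporter gene Abcg1 (1.17, SE 0.31, edgeR adjusted p = 0.0151), whose call was lost without WT ID8 3 (1.13, edgeR adjusted p = 0.0711). Rxrb (-0.57, edgeR adjusted p = 0.0158) and Ppara (-2.29, edgeR adjusted p = 0.0425) were called lower in WT, and these calls held in 8 and 2 of the 12 fits without 1 library. The Ppara call was lost with the replicate block (-2.43, edgeR adjusted p = 0.0578). Ppara was at 1.07 ± 0.521 CPM even in WT naive cells, where the 95th percentile of the background genes was 0.668 to 1.52 CPM. In the genotype comparisons and the interaction edgeR called 0 of 20, with 2, 3 and 2 at an unadjusted p under 0.05. The same unadjusted counts over all 15943 tested genes were 999, 1935 and 1186.

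Of 14 listed relatives of the 6 genes 12 were tested, and 2 rose and 1 fell in WT while 1 rose and 2 fell in Tim4KO. The shares over all tested genes were 19.5% higher and 12.3% lower in WT, and 11.5% and 5.06% in Tim4KO. Of Retnla's family, Retnlb had at most 3 counts in any library. Retn, the gene of resistin, was called higher in WT (log2 change 1.70, SE 0.46, edgeR adjusted p = 0.0127), in 10 of the 12 fits without 1 library. It was low, at 0.629 to 1.19 CPM in WT naive and 2.07 to 3.56 CPM in WT ID8. In WT naive libraries the 95th percentile of the background genes was 0.668 to 1.52 CPM. Retnlg was at 0.238 ± 0.220 CPM in naive and 2.11 ± 1.67 CPM in challenged WT cells and at 0.790 ± 0.925 and 8.69 ± 3.47 CPM in Tim4KO, and it was called higher with challenge in both genotypes (log2 change 3.20 and 3.27, edgeR adjusted p = 0.0334 and 0.0173). These calls held in 7 and 9 of the 12 fits without 1 library, and the Tim4KO change was 5.06 without Tim4KO naive 3. Retnlg is known as a transcript of neutrophils. The 9 neutrophil markers summed to 177 to 258 CPM in naive libraries and 70.5 to 112 CPM in challenged ones, but most of this sum was Csf3r (169 to 250 CPM against 60.1 to 82.9 CPM). S100a8 went the other way, from 4.40 to 7.38 CPM in naive libraries to 9.13 to 24.8 CPM in challenged ones. S100a9 (0.0668 to 1.24 CPM naive, 0.456 to 3.91 challenged) and Cxcr2 (at most 0.958 CPM naive, 0.183 to 3.34 challenged) overlapped and were highest in WT ID8 1, and Ly6g did not exceed 0.231 CPM. The part of neutrophil RNA in the Retnlg change was not tested. Among STAT genes related to Stat6, Stat4 fell in WT (-1.45, edgeR adjusted p = 0.000986) and Tim4KO (-1.43, edgeR adjusted p = 0.00217), and Stat5b was called lower in Tim4KO (-0.49, edgeR adjusted p = 0.0411), in 3 of the 12 fits without 1 library. Exons of Stat4 overlap those of Gm28177, so reads of the 2 may be mixed. Of the mannose receptor family, Mrc2 did not exceed 1.41 CPM and Ly75 8.40 CPM in any library. In the genotype comparisons and the interaction edgeR called 0 of 12 relatives, with 2, 2 and 0 at an unadjusted p under 0.05. The same unadjusted counts over all 15943 tested genes were 999, 1935 and 1186.

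Cells other than large peritoneal macrophages can carry some of these transcripts. The summed level of 11 markers of small peritoneal macrophages and dendritic cells was 251 to 529 CPM in naive and 95.1 to 387 CPM in challenged WT libraries, and 290 to 389 CPM and 266 to 356 CPM in Tim4KO, with 10 of the 11 genes tested. The 387 CPM was WT ID8 3, and the median of WT ID8 was 128 CPM. Cd74 was the highest of these genes in every library (114 to 269 CPM naive, 44.4 to 232 challenged). Cd209a went from 24.4 to 39.5 CPM in naive libraries to 3.27 to 6.66 CPM in challenged ones. For every other gene of the list naive and challenged libraries overlapped. The 5 monocyte markers summed to 677 to 1425 CPM in naive libraries and 265 to 444 CPM in challenged ones. The monocyte sum was lower after challenge in both genotypes, as Retnla was, and their part in the changes of Retnla and Mrc1 was not tested. Eosinophil markers summed to at most 5.86 CPM over 7 genes in any library, with Ear1 and Ear6 at no more than 3 counts, and 6 mast cell markers to 13.3 to 39.0 CPM in naive and 2.30 to 9.53 CPM in challenged libraries.

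The genes whose levels over the 12 libraries were most like those of a member were found by Pearson correlation of log2 CPM among 9728 genes whose mean count reached 50. The libraries fall into 4 groups and share their depth and background, so the values describe likeness and carry no test. Closest to Retnla were Serpinb10 (r = 0.97), Gas6 (r = 0.97) and Hal (r = 0.96). Gas6 encodes a ligand that bridges phosphatidylserine on dead cells to receptors of the TAM family, Hal encodes histidine ammonia-lyase, and Serpinb10 encodes an intracellular serpin. As genes picked for likeness to Retnla they share its direction by choice, and their fitted log2 changes with challenge describe its size: -1.52, -1.91 and -1.69 in WT and -0.89, -1.10 and -0.68 in Tim4KO for Serpinb10, Gas6 and Hal. Closest to Mrc1 were Tgfbi (r = 0.95), Arap3 (r = 0.94) and Acvr2b (r = 0.94), of which Tgfbi encodes a secreted matrix protein. Stat6 was most like Grina, Ano6 and Gpr89 (r of 0.92 to 0.94) and Il4ra most like Parp11, Grpel2 and Morc3 (r of 0.92 to 0.93). Chil3 and Pparg, the 2 genes near background, had no gene above r = 0.87.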

How the data were processed

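The authors deposited 1 table of raw counts of reads per Ensembl gene, with 1 column per library. That they are raw was read from the values. RNA came from sorted cells and libraries from the SMART-Seq mRNA LP kit, per the labels' protocols. STAR 2.5 and FastQC, and the builds mm10 and GRCm39, are named without a role in the submitters' processing notes; the counting program, annotation and use of strand are not given in the sources used here. Names, exonic lengths and overlaps came from GENCODE vM21, in which 52029 of 57010 identifiers had a name. Beside the overlaps given above, exons of Nr1h3 overlap those of Gm13783 on the same strand. Exons of Irs2, Jak1, Tgm2 and Slc7a2, among others, overlap genes on the opposite strand, so reads may be mixed there too.

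The test was edgeR (4.0.16, under R 4.3.3) on the counts: filterByExpr, TMM factors, and 1 robust quasi-likelihood model of 4 group means over all 12 libraries with 8 residual degrees of freedom. Called means an adjusted p (Benjamini-Hochberg, 15943 genes, two-sided) under 0.05. SE was taken as |log2 change|/sqrt(F), and 95% intervals use 8 degrees of freedom. Floors of 3 counts cover counting error only. The code was run on simulated counts in which a small set of genes differed in WT ID8 only. Those counts lacked the many changed genes and the outlying library WT ID8 3, so they do not bound errors here. The 6 genes, the lists and the markers were chosen with earlier results of these data known. Named were the 6 genes, up to 5 called genes per list with the smallest p, 5 fixed genes and the 3 most alike per member. Genes named beside these (Timd4, Lyz2, Gata6, Il4, Il13, Chil4, the low or uncalled genes of the lists) were chosen after their values were seen, as was the background measure. Alternatives were other scalings, no filter, DESeq2 1.42.0, limma 3.58.1 (voom), fits of only the groups compared, a replicate block and leaving out each library. The labels do not say what a replicate number shares. Deviations from the group means of same-numbered WT naive and WT ID8 libraries correlated at 0.103, 0.105 and 0.309. For WT naive and Tim4KO naive the values were 0.328, 0.0704 and 0.136. These values cannot decide whether equal numbers are pairs. The main fit used no pairing, and the replicate block was 1 alternative, fitted over all 4 groups.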

Additional observations from a re-analysis of the deposited data

How the results depend on the processing

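Of the values of the 6 genes over all alternatives, 512 kept their direction and side of the threshold, 16 lost the call, 2 gained it and 34 changed sign. The cause was not tested for any of them. The 6 genes called in WT with challenge went from 2 to 1 with no filter on low counts (1 to 3 without 1 library), and in Tim4KO from 1 to 0 with no filter and with only the groups compared (0 to 1 without 1 library). The 95% intervals of Retnla, Mrc1, Chil3 and Pparg were wider than 2 log2 units in all 5 comparisons, and how much of this is counting error and how much spread between libraries was not tested.

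Over all genes, the naive genotype comparison called 7 genes, and 59 with no filter, 52 with DESeq2, 3 with voom, 2 with only the groups compared and 3 with the replicate block (1 to 29 without 1 library). The challenged genotype comparison called 9, and 264 with no filter, 265 with DESeq2 and 14 with the replicate block (1 to 997 without 1 library, the highest without WT ID8 3). Challenge called 5067 genes in WT, and 3102 with only the groups compared (3362 to 7230 without 1 library), and 2642 in Tim4KO (1222 to 3595). The interaction called 0, and 73 with no filter and 11 with DESeq2 (0 to 368). Upper-quartile scaling moved its median over all genes from 0.01 to 0.13.

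Small differences changed sign. With the replicate block these were Retnla between naive genotypes (-0.012) and the Pparg interaction (-0.082). Among the WT challenge values given, the block ended the calls of Mgl2, Irf4 and Ppara and changed no other call. Retnla and Mrc1 kept theirs (-3.65 and -2.21, edgeR adjusted p = 0.00111 and 0.00509). In the other group pairs the correlations of same-numbered deviations ran from -0.0947 to 0.328. There the block gave a call to Arg1 between challenged genotypes (-1.13, edgeR adjusted p = 0.0485). It took that of Jak2 with challenge in Tim4KO (-0.44, edgeR adjusted p = 0.0517). Between challenged genotypes, Stat6 was -0.0054 with RLE scaling, -0.0058 with DESeq2 and -0.043 with no filter, Il13ra1 was -0.035 and Jak1 -0.021 with no filter, and Pparg was 0.17 with voom. With challenge in WT, Il13ra1 was -0.016 (RLE and DESeq2), -0.22 (upper quartile) and -0.068 (only the groups compared), and Jak1 was -0.035 (RLE), -0.034 (DESeq2), -0.23 (upper quartile) and -0.082 (only the groups compared). Rxra was -0.19 with upper-quartile scaling and -0.041 with only the groups compared, and Chil3 was -0.00046 with upper-quartile scaling. The Jak1 interaction was 0.020 with upper-quartile scaling.

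Without 1 library each, log2 ranges that crossed 0 were as follows. Between naive genotypes they were -0.33 to 0.47 for Retnla, -0.23 to 0.62 for Mrc1 and -1.21 to 0.14 for Pparg. Between challenged genotypes they were -0.61 to 0.52 for Chil3, -0.24 to 0.027 for Il4ra, -0.13 to 0.12 for Stat6, -0.79 to 0.18 for Pparg, -0.19 to 0.29 for Il13ra1 and -0.15 to 0.12 for Jak1. With challenge in WT they were -0.46 to 0.60 for Chil3, -0.68 to 0.38 for Pparg, -0.20 to 0.27 for Il13ra1, -0.045 to 0.22 for Jak1 and -0.031 to 0.23 for Rxra. With challenge in Tim4KO they were -1.02 to 0.0084 for Chil3 and -0.48 to 0.71 for Pparg. For the interaction they were -0.49 to 0.86 for Pparg, -0.42 to 0.060 for Il13ra1 and -0.43 to 0.048 for Arg1.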
